A study of Mus musculus with 18 samples.

Results

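The macrophage marker genes described here are 10 genes by which macrophages are commonly recognised in mouse tissue: Csf1r, Cd68, Adgre1, Cd163, Mrc1, Lyve1, Cd14, Itgam, C1qa and C1qb. Each was taken from the deposited table as the probeset annotated to that symbol alone, the brightest by mean log2 intensity over 18 arrays where several exist. All 10 genes were found, each with 1 such probeset and none shared with another gene, among 15300 probesets, of which 13592 carried 1 symbol and covered 13255 genes. The series profiled gastrocnemius, a calf muscle, dissected from both legs. The mice were C57BL/6 males, aged 2, 11 or 25 months, and each age was represented by 6 arrays. The labels name no transgene and state that treatment did not apply. They call the samples within each age biological replicates. Values are log2 of the deposited Affymetrix whole-transcript array intensity. A level compares the arrays for 1 gene and cannot be set against the level of another gene, since probes differ in brightness.

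Macrophages are phagocytes that depend on signalling through the receptor encoded by Csf1r, which binds the ligands encoded by Csf1 and Il34. In resting skeletal muscle they lie mainly in the connective tissue between fibres and around vessels, where they clear debris. After injury, monocytes enter from blood and become macrophages that remove dead fibres and help stem cells to rebuild them. The whole muscle was extracted, so fewer macrophages and less RNA per macrophage cannot be told apart. Several markers also have other sources: Lyve1 is made by lymphatic endothelium, Mrc1 by some endothelial cells, and Itgam by neutrophils and natural killer cells.

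The promoters of 5 of the 10 genes were taken from RefSeq, as the 250 bases before the annotated gene start in GRCm38.p6. They were searched for GAGGAA, or TTCCTC on the other strand, the core of sites bound by PU.1, the myeloid transcription factor encoded by Spi1. The 3 promoters printed here are those of a phagocytic receptor, an integrin and a complement chain. Capitals mark each match, and each sequence runs 5′ to 3′ on the strand of the gene.
Mrc1: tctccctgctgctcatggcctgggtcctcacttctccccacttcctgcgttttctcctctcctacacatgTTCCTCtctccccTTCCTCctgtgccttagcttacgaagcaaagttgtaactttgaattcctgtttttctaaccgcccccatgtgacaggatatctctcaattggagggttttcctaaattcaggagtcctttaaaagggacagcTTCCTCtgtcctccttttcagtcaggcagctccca
Itgam: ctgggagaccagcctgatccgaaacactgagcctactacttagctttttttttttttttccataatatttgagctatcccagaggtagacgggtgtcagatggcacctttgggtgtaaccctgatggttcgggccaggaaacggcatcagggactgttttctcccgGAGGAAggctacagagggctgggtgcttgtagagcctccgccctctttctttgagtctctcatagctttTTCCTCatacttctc
C1qb: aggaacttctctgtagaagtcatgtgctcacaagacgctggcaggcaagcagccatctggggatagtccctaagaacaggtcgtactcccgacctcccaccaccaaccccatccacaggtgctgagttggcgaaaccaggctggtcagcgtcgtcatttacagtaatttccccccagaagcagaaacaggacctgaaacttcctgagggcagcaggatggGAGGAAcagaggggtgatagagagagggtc
The Mrc1 window lies at chr2:14229164-14229413 on the plus strand and holds 3 matches, whose first bases are at -180, -167 and -35 from the gene start. Itgam, at chr7:128062390-128062639 on the plus strand, has matches at -84 and -15. C1qb, at chr4:136886201-136886450 on the minus strand, has 1 match at -30. Cd68 has 1 match at -225 and Cd163 has 0, so 4 of the 5 windows searched hold the motif, against 23.3% of the 32851 promoters of the table. A match is a description of the letters and not a bound site. The promoters of Csf1r, Adgre1, Lyve1, Cd14 and C1qa were not searched. In RefSeq's gene table C1qb, C1qc and C1qa follow each other along 1 chromosome.

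Array medians were close to each other, from 97.6 to 101 intensity units. Against the dimmest 0.25 of all probesets, which ended at a log2 level of 5.59, 9 of the 10 genes lay above and Cd14 lay below. Muscle fibre markers gave a mean log2 level of 13.5 to 13.6 on every array. Markers of the other cell types were above 0 on all arrays, as every probeset of the table was on the scale used, so this does not show that those cells were present. Replicate 6 at 2 months stood apart in its B cell markers, whose mean log2 level was 6.06 against 5.18 to 5.34 on the other 5 arrays of that age, with 6 of 6 genes highest there. The T and NK cell markers were also highest on that array, at a mean of 5.37 against 5.07 to 5.21. Replicate 4 at 11 months had the highest skin keratinocyte markers, at 7.56 against 5.49 to 6.57 on the other arrays of that age. Values without these arrays are given where they change a call.

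Over the 10 genes, age moved the macrophage markers little. From 2 to 11 months Csf1r rose 1.17-fold, and from 2 to 25 months Cd68 rose 1.21-fold. The other 8 genes did not pass the test of limma, a linear model with moderated variances, in any pair of ages after Benjamini-Hochberg adjustment over all 15300 probesets (threshold 0.05). At 11 against 2 months 1 of 10 genes was higher and 0 lower, beside 11.9% of all probesets higher and 7.18% lower. At 25 against 11 months 0 of 10 passed, beside 0.15% of all probesets in either direction. At 25 against 2 months 1 of 10 was higher and 0 lower, beside 10.5% and 6.95%. The members' counts are therefore near the background in each pair. By limma's moderated F statistic over the 3 ages 0 of 10 passed, beside 19.2% of all probesets. By that statistic 2 of the 10 had an unadjusted p under 0.05, beside 5168 of the 15300 probesets. Without adjustment, 2, 2 and 1 of the 10 genes were under 0.05 in the 3 pairs of ages, in the order given. Of the 15300 probesets, 5482, 1591 and 4592 were. The same numbers are the background for counts of unadjusted p in the gene lists below. The one-way test with Tukey's comparison that the series text names called 0 of 10 in each pair and over the 3 ages. For every gene the ranges of the 6 arrays overlapped between each pair of ages.

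**Figure D1:**
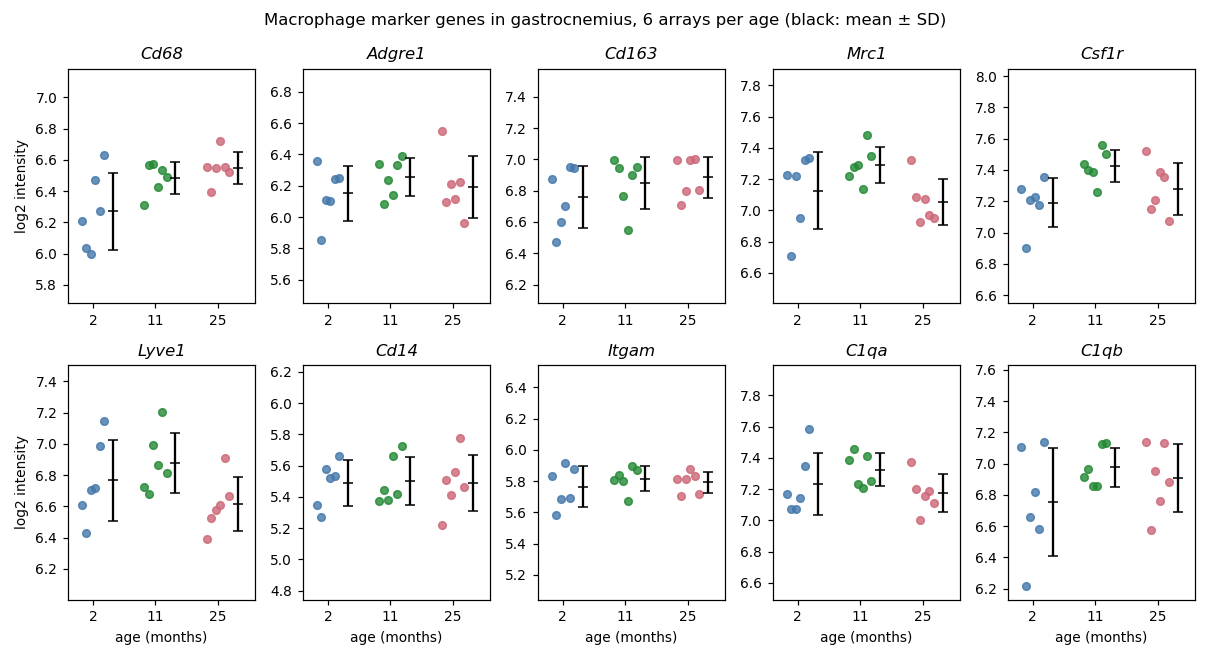
Log2 intensity (vertical axes, a separate one per gene) of the 10 macrophage marker genes on each array by age in months; dots are arrays, black bars the mean and SD of 6 arrays. The ages overlap for every gene, and the dots at 2 months spread more than those at 11 months for 9 of 10 genes.

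Csf1r encodes the receptor for the growth factors made from Csf1 and Il34, on which macrophage survival depends. Its log2 level had a lowest, median and highest value of 6.90, 7.22 and 7.36 at 2 months. At 11 months these were 7.26, 7.42 and 7.56, and at 25 months 7.07, 7.28 and 7.52. The 11-month arrays were the highest as a group, yet their lowest array lay under the highest arrays of the other ages. The mean was 7.19 ± 0.16 at 2 months and 7.42 ± 0.10 at 11 months (SD, n = 6), a log2 change of 0.23 ± 0.08 (SE; 95% interval 0.07 to 0.40) with limma's adjusted p = 0.0452. At 25 months it was 7.28 ± 0.17, and neither 25 against 11 months (log2 change -0.14, limma adjusted p = 0.552) nor 25 against 2 months (0.09, adjusted p = 0.483) passed. In order of level the ages ran 2, 25 and 11 months, and neither neighbouring pair was separated by the test. The rise to 11 months was close to the threshold. Its adjusted p ran from 0.0301 to 0.287 over 29 alternatives (other scalings, models or arrays left out) and passed in 14. The rise passed without replicate 6 at 2 months (limma adjusted p = 0.0348) and without replicate 4 at 11 months (0.0301). The latter is also the array of highest skin markers, so its fit is counted under both names in the 29. Without replicate 2 at 2 months the log2 change was 0.17 (adjusted p = 0.111), and leaving out replicates 3, 4 or 5 at 2 months, 1, 2, 3, 5 or 6 at 11 months or 3 at 25 months also ended the call, with adjusted p from 0.052 to 0.109.

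Cd68 encodes a glycoprotein of the lysosomes and endosomes of macrophages. It was the gene with the largest change between the youngest and the oldest mice. Its log2 level had a lowest, median and highest value of 6.00, 6.24 and 6.63 at 2 months. At 11 months these were 6.31, 6.51 and 6.57, and at 25 months 6.39, 6.55 and 6.72. All 12 older arrays lay above the young median, while the top of the young range was replicate 6, the array with raised B cell markers. The young mean was 6.27 ± 0.25 (SD, n = 6), against 6.48 ± 0.10 in the 11-month and 6.55 ± 0.10 in the 25-month arrays. For 25 against 2 months the log2 change was 0.28 ± 0.09 (SE; 95% interval 0.09 to 0.46), with limma's adjusted p = 0.0331. For 11 against 2 months it was 0.21 ± 0.09 and did not pass (95% interval 0.03 to 0.40, limma adjusted p = 0.0921), and for 25 against 11 months it was 0.07 (adjusted p = 0.830). The order of ages was 2, 11 and 25 months, with neither neighbouring pair separated. Over 29 alternatives the adjusted p of 25 against 2 months ran from 0.0015 to 0.102 and passed in 19. The value of 0.102 is the adjusted p of the one-way F test over the 3 ages, which a pair had to pass together with Tukey's comparison. Without replicate 6 at 2 months the log2 change was 0.35 (adjusted p = 0.0046), and 11 against 2 months passed as well, with 0.29 (adjusted p = 0.0196). The call at 25 against 2 months was lost without replicate 1, 2, 3 or 5 at 2 months or 1, 3, 4 or 6 at 25 months, with adjusted p from 0.053 to 0.086.

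**Figure D2:**
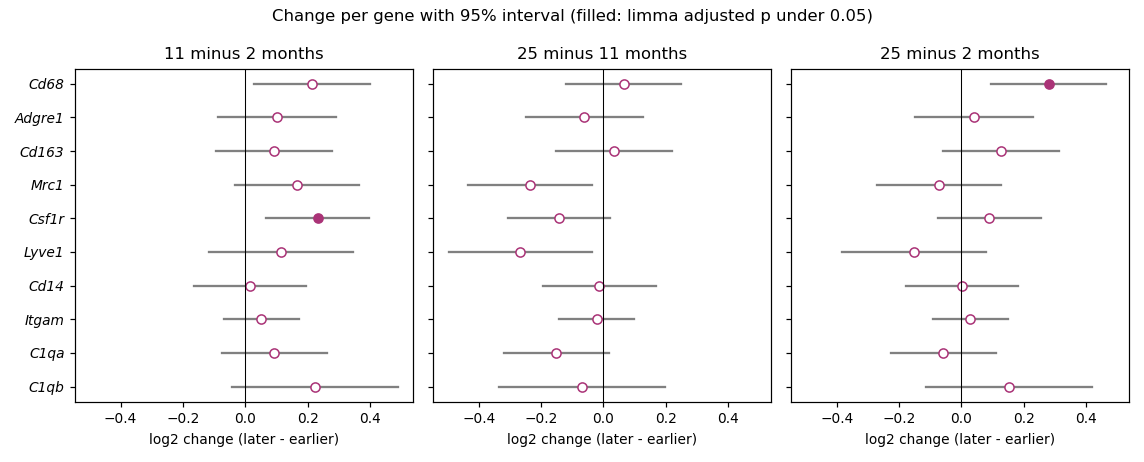
Log2 change (horizontal axes, later minus earlier age) of each gene in the 3 pairs of ages, with 95% intervals from limma; filled dots have an adjusted p under 0.05. The filled dots are Csf1r at 11 against 2 months (0.23) and Cd68 at 25 against 2 months (0.28).

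Mrc1, Cd163 and Lyve1 encode surface receptors typical of resident tissue macrophages: Mrc1 the mannose receptor, Cd163 the scavenger receptor for haemoglobin bound to haptoglobin, and Lyve1 a receptor for hyaluronan. Mrc1 had a lowest, median and highest log2 level of 6.71, 7.22 and 7.33 at 2 months. The same values were 7.14, 7.28 and 7.48 at 11 months and 6.92, 7.02 and 7.32 at 25 months. Levels at 25 months were mostly under those at 11 months, with 1 old array, replicate 1, within the 11-month range. The log2 change from 11 to 25 months was -0.24 (95% interval -0.44 to -0.04), with an unadjusted p of 0.0220 by limma and an adjusted p of 0.417. Lyve1 had a lowest, median and highest log2 level of 6.43, 6.71 and 7.15 at 2 months, of 6.68, 6.84 and 7.20 at 11 months and of 6.39, 6.59 and 6.91 at 25 months. Its log2 change from 11 to 25 months was -0.27 (95% interval -0.50 to -0.04; limma unadjusted p = 0.0257, adjusted p = 0.429). In neither gene did this comparison pass, nor did that of 25 with 2 months (log2 changes of -0.07 and -0.15, limma adjusted p = 0.659 and 0.381). The ages were in the order 25, 2 and 11 months for both. Among 3 measured markers of lymphatic endothelium, another source of Lyve1, 0 passed limma's test in 25 against 11 months and 1 had an unadjusted p under 0.05. That marker had a log2 change of 0.25 (limma adjusted p = 0.410), opposite in sign to Lyve1, and the others were below 0. Cd163 gave another pattern, with a lowest, median and highest log2 level of 6.47, 6.79 and 6.95 at 2 months, 6.55, 6.92 and 6.99 at 11 months and 6.71, 6.90 and 6.9998 at 25 months. Its highest arrays were nearly level across ages, and its changes were 0.09, 0.03 and 0.13 in the 3 pairs (95% interval of the last -0.06 to 0.31).

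Adgre1, Itgam and Cd14 complete the surface markers. Adgre1 encodes an adhesion receptor widely used to stain mouse macrophages, and its lowest, median and highest log2 levels were 5.85, 6.18 and 6.36 at 2 months, 6.08, 6.29 and 6.39 at 11 months and 5.96, 6.16 and 6.55 at 25 months. The 3 ages covered each other almost wholly, and its log2 changes lay between -0.06 and 0.10 with limma adjusted p of 0.423 to 0.852. Itgam encodes the integrin chain CD11b. It had the narrowest levels, from 5.59 to 5.91 at 2 months, 5.67 to 5.90 at 11 months and 5.71 to 5.87 at 25 months, and log2 changes between -0.02 and 0.05. The widest of its 95% intervals reached 0.17, so larger differences lay outside the interval. Cd14, the co-receptor that hands bacterial lipopolysaccharide to Toll-like receptors, ran from 5.27 to 5.66, from 5.38 to 5.72 and from 5.22 to 5.77 at the 3 ages, with means of 5.49, 5.501 and 5.49. Its signal was among the dimmest of the table, where arrays compress differences, and its log2 changes were 0.01, -0.01 and 0.00 (95% intervals within -0.19 to 0.20).

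C1qa and C1qb encode chains of C1q, the molecule that starts the classical complement pathway and that macrophages supply in many tissues. C1qb had a lowest, median and highest log2 level of 6.22, 6.74 and 7.14 at 2 months, 6.86, 6.94 and 7.13 at 11 months and 6.58, 6.92 and 7.14 at 25 months. Its highest arrays lay within 0.01 log2 units of each other across ages while its lowest arrays were further apart, with an SD of 0.35 at 2 months and 0.13 at 11 months. The log2 change from 2 to 11 months, 0.22, had a 95% interval of -0.04 to 0.49 and did not pass (limma adjusted p = 0.212). C1qa had levels of 7.07, 7.16 and 7.58 at 2 months, 7.21, 7.32 and 7.45 at 11 months and 7.005, 7.17 and 7.37 at 25 months. Its log2 change was 0.09 at 11 against 2 months and -0.15 at 25 against 11 months, where the 95% interval ran from -0.32 to 0.02 (limma adjusted p = 0.412 and 0.537). The third chain, C1qc, was not among the members but was measured: it rose by a log2 change of 0.33 ± 0.10 (SE) from 2 to 11 months, 1.26-fold, with limma's adjusted p = 0.0229. C1qc was singled out after its values were seen. Whether it differed from C1qa and C1qb in its change was not tested.

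In direction, 10 of 10 log2 changes were above 0 at 11 against 2 months, 2 of 10 at 25 against 11 months and 7 of 10 at 25 against 2 months, against 46.2%, 51.2% and 45.5% of all probesets. The medians over the 10 genes were 0.11, -0.06 and 0.03, beside -0.02, 0.00 and -0.01 over all probesets. The 3 pairs of ages share arrays, and 15 of the 45 pairs of genes varied together, so these are counts and not tests. None of those 15 pairs held Lyve1 or Cd14, and 0 passed without the 2 arrays farthest from the median. Markers of some other cell types showed similar directions. In the same order of pairs, 7, 0 and 4 of 7 adipocyte genes and 6, 0 and 5 of 6 skin keratinocyte genes were above 0. At 25 against 11 months 0 of 9 fibroblast and 1 of 10 blood endothelium genes were, after 6 and 5 at 11 against 2 months. Other lists went the other way. At 11 against 2 months 0 of 8 T and NK cell and 0 of 6 B cell genes were above 0. So were 1 of 6 dendritic cell, 2 of 8 neutrophil, 0 of 3 lymphatic endothelium and 0 of 3 erythroid genes. At 25 against 11 months these counts were 7, 6, 5, 7, 1 and 3. The part of these cell types in the members' direction was not tested. Single arrays moved the medians by more than 1.5 times. At 11 against 2 months the median was 0.05, with 9 of 10 above 0, without replicate 2 at 2 months and 0.18 without replicate 6 at 2 months. At 25 against 11 months it was -0.12 without replicate 1 at 25 months and between -0.04 and -0.03 without replicate 5 or 6 at 11 months or 2, 4 or 6 at 25 months. At 25 against 2 months it was -0.01, with 4 of 10 above 0, without replicate 2 at 2 months, and 0.05 to 0.07 without replicate 1 or 6 at 2 months or 2 or 6 at 25 months. Array weights gave 1 of 10 above 0 at 25 against 11 months (median -0.10) and 5 of 10 at 25 against 2 months (0.01). Quantile normalization and median centring kept 10 of 10 above 0 at 11 against 2 months. With a covariate for the signal range of an array 9 of 10 were above 0, and Adgre1 was at -0.01. Signal range means how widely the log2 values of an array spread (their interquartile range). It ran from 2.03 to 2.35 at 2 months, 2.25 to 2.45 at 11 months and 2.13 to 2.37 at 25 months. Signal range thus overlaps with age in part. Where a call was lost with this covariate, the parts of both cannot be told apart.

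The spread at 2 months came largely from 2 arrays. Replicate 2 lay under the mean of its age in 10 of 10 genes and was the lowest of its age in 8, with a median deviation of -0.29 log2 units. Replicate 6 lay above in 10 of 10 genes and was the highest in 7, with a median deviation of 0.20. At 11 months replicate 4, the array with raised skin markers, was under the mean in 9 genes and lowest in 6. Replicate 5 was above it in 9. At 25 months replicate 5 was above in 9 genes and replicate 6 under in 9. The SD was larger at 2 than at 11 months in 9 of 10 genes, beside 68.8% of all probesets, and its median over the genes was 0.20, 0.12 and 0.16 at the 3 ages, beside 0.13, 0.10 and 0.10 over all probesets. Low macrophage markers on replicate 2 went with low fibroblast markers: their mean log2 level there was 8.67 against 8.82 to 9.19 on the other 5 arrays, with 7 of 9 genes lowest. The part of these other cell types in the members' values was not tested.

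**Figure D3:**
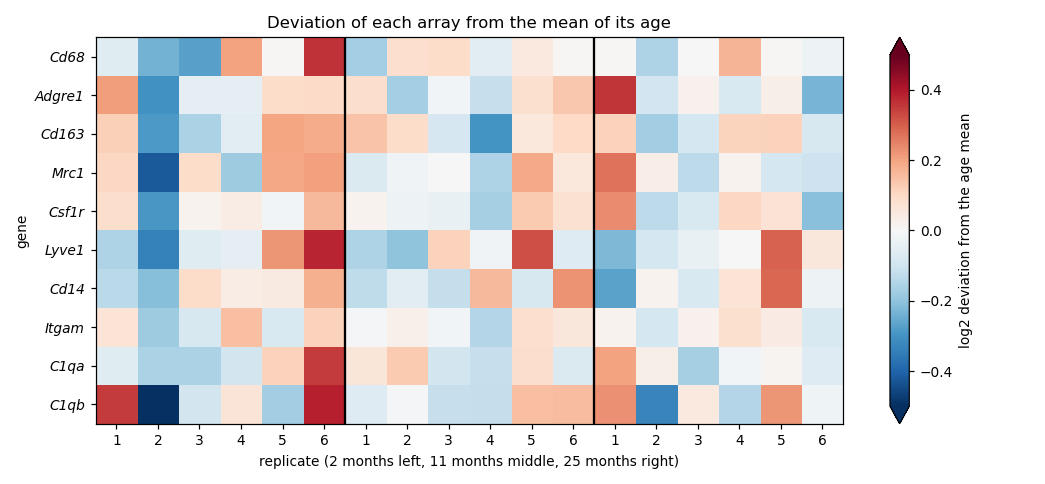
Deviation of each array from the mean of its age in log2 units (colour) for the 10 genes (rows), with arrays as columns grouped by age. The column of replicate 2 at 2 months is blue in 10 of 10 genes and that of replicate 6 is red in 10 of 10.

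The genes were then compared with each other within ages, after the mean of each age was subtracted. Over 18 arrays, 44 of the 45 pairs of genes had a Pearson correlation above 0, with a median of 0.50 and a range from -0.08 to 0.83. In the whole table the median over 117037350 pairs of probesets was 0.004, and 8.06% of those pairs reached 0.5 against 48.9% of the 45. By permutation of arrays within ages (100000 permutations, two-sided, Benjamini-Hochberg over 45 pairs) 15 pairs passed with Pearson's r and 12 with Spearman's rho, all 12 of them with both. The closest pair was Adgre1 with Csf1r (r = 0.83, permutation p = 0.0003, adjusted p = 0.0052; rho = 0.75, permutation p = 0.0009). Csf1r correlated with Itgam at r = 0.78 and rho = 0.77, with Mrc1 at r = 0.77, and with Cd163 and C1qb at r = 0.76 (adjusted permutation p of 0.0052 to 0.0064). Itgam, whose levels differed least, correlated with C1qb at r = 0.75 and with Cd68 at r = 0.74. The neighbouring genes C1qa and C1qb reached r = 0.45 and did not pass (adjusted permutation p = 0.260). No pair with Lyve1 or Cd14 passed. The closest of these was the pair of both, at r = 0.55, which passed once the array signal range was removed (r = 0.61, adjusted permutation p = 0.0419), where 18 of the 45 pairs passed and the median r was 0.55.

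The calls among these correlations rest on a few arrays. With the 2 arrays farthest from the median of the first gene of each pair left out, 0 of 45 pairs passed by the same permutation test, 12 had an unadjusted p under 0.05, and the median r was 0.29; Adgre1 with Csf1r then stood at r = 0.62. With replicates 2 and 6 at 2 months left out together, an alternative chosen after the data were seen, 0 of 45 passed on the remaining 16 arrays. There 31 of 45 pairs were above 0, the median r was 0.20, 12 pairs had an unadjusted p under 0.05 and the lowest adjusted permutation p was 0.0508. The closest pairs kept most of their size there, with r = 0.77 for Adgre1 and Csf1r and 0.66 each for Csf1r with Itgam, Cd68 with Itgam and Cd163 with C1qa. Leaving out replicate 2 at 2 months alone left 3 pairs, and leaving out any other single array left 10 to 16.

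**Figure D4:**
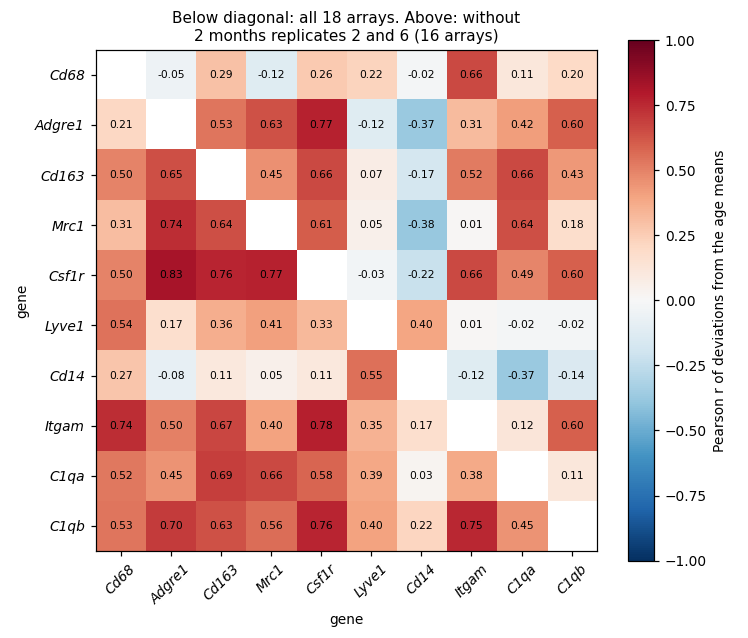
Pearson r of deviations from the age means for the 45 pairs of genes (colour and numbers), below the diagonal over 18 arrays and above it without replicates 2 and 6 at 2 months (16 arrays). The median r is 0.50 below and 0.20 above the diagonal.

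Each gene was also set against the mean of the other 9, as standardised deviations over 18 arrays. The correlation was highest for Csf1r (0.85), then Cd163 and C1qb (0.78 each), Itgam (0.73), Mrc1 (0.70), Adgre1 (0.64), C1qa and Cd68 (0.63 each) and Lyve1 (0.53), and lowest for Cd14 (0.21). These values share their arrays and are a description with no test. Outside the 10 genes, those most like their mean over the 18 arrays were Ifi30, a thiol reductase of lysosomes (r = 0.88), Msn, which links membrane to actin (0.88), Dpep1, a dipeptidase (0.88), Grn, the precursor of granulins (0.86), and Ctss, the lysosomal protease cathepsin S (0.85). Most like C1qa alone were Fyb, an adaptor of haematopoietic cells (r = 0.83), Dhodh, an enzyme of pyrimidine synthesis (0.82), and Eps8, a regulator of actin (0.81). Of these 8 genes Dhodh alone changed with age, with a log2 change of -0.22 from 2 to 25 months (limma adjusted p = 0.00142). Among the marker lists of other cell types, the fibroblast list moved most with the mean of the 10 genes within ages (r = 0.80, rho = 0.77, n = 18), then the B cell list (0.49 and 0.23) and blood endothelium (0.42 and 0.55). The neutrophil, dendritic and skin lists lay between -0.07 and 0.03 in r. The same arrays, replicates 2 and 6 at 2 months among them, enter all of these correlations, and they carry no test.

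The ligands and transcription factors that make and keep macrophages did not pass in any pair of ages. Of the 11 genes listed, 8 were measured, among them Csf1, Il34 and Spi1. By limma 0 of 8 passed in each pair of ages, 2 had an unadjusted p under 0.05 at 11 against 2 months and 0 in the other pairs. Tukey's comparison called 0. At 11 against 2 months 1 of the 8 was above 0, with a median log2 change of -0.10, and leaving out single arrays gave 0 to 2 genes called lower. Csf1 had a log2 change of -0.13 and Il34 of -0.08 from 2 to 11 months (limma adjusted p = 0.127 and 0.317), while their receptor gene Csf1r rose. Both ligands were named for this pair for their role, after their values were seen. The smallest p was that of Cebpb, a transcription factor of myeloid cells, adipocytes and other cells, at -0.20 (adjusted p = 0.124). Of the 10 genes of monocyte recruitment 6 were measured and 0 passed by limma in any pair, where 0 were also under 0.05 before adjustment and 0 passed the one-way test. The chemokine Ccl2 had log2 changes of -0.10 and 0.11 in the first pairs of ages (limma adjusted p = 0.229 and 0.537). Its receptor gene Ccr2 had 0.12 from 2 to 25 months (0.359). Both were dim, with mean log2 levels of 4.91 to 5.02 for Ccl2 and 5.06 to 5.19 for Ccr2, where arrays compress differences.

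Of 19 genes of resident macrophages and scavenger receptors 16 were measured. From 2 to 11 months 2 of the 16 rose and 0 fell, near the 11.9% of all probesets that were higher. The mean log2 level of Pf4, a chemokine of platelets and of some resident macrophages, went from 6.71 ± 0.12 to 7.23 ± 0.22 (SD, n = 6), a 1.43-fold rise with limma's adjusted p = 6.62e-04 that passed under all 29 alternatives. Ccl24, a chemokine that attracts eosinophils, rose by 0.23 (adjusted p = 0.0278). From 2 to 25 months 1 rose and 2 fell, beside 10.5% of all probesets higher and 6.95% lower. Gas6, a ligand of receptors for the uptake of dying cells, rose by 0.18 (limma adjusted p = 0.0351). Its receptor gene Axl fell by 0.24 (0.0206), and Fcgrt, the receptor that protects antibodies from breakdown, fell by 0.32 (0.00201). Of 29 alternatives Gas6 passed in 18, Axl in 23 and Fcgrt in all. Gas6 did not pass with the one-way test, quantile normalization or the array signal range as a covariate. From 11 to 25 months 0 passed by limma, 6 were under 0.05 before adjustment and Tukey's comparison called 2 lower. The count of 2 rises at 11 months became 1 without replicate 2 or replicate 6 at 2 months. At 25 against 2 months the 1 rise became 0 without replicate 3 or 4 at 2 months or 1, 2, 3 or 4 at 25 months and 2 without replicate 4 or 6 at 11 months or 6 at 25 months, and the 2 falls became 1 without replicate 5 or 6 at 2 months or 1 or 2 at 25 months.

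Phagocyte receptor and signalling genes, with 18 of 22 measured, rose in 2 cases from 2 to 25 months, near the 10.5% of all probesets that were higher. Lgmn, a lysosomal protease, rose by a log2 change of 0.26 (limma adjusted p = 0.0253), and Cybb, the catalytic subunit of the oxidase that phagocytes use against microbes, by 0.36 (0.0489). In the other pairs 0 passed by limma and 0 by the one-way test, with 6 and 1 genes at an unadjusted p under 0.05. Both calls were fragile: without replicate 2 at 2 months or replicate 1 or 5 at 25 months 0 genes passed. Leaving out replicate 3 or 5 at 2 months, 1, 2, 3 or 6 at 11 months or 2, 3 or 4 at 25 months left 1 gene, and leaving out replicate 6 at 2 months gave 4.

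Of the 16 complement genes listed, 7 were measured. Of these 7, 4 rose and 0 fell from 2 to 11 months, beside 11.9% of all probesets higher and 7.18% lower. Cfb, the protease of the alternative pathway, rose from a mean log2 level of 6.15 ± 0.33 to 6.70 ± 0.13 (SD, n = 6), 1.46-fold (limma adjusted p = 0.00326). Serping1, the inhibitor of C1, rose 1.34-fold from 9.55 ± 0.21 to 9.98 ± 0.16 (adjusted p = 0.0045). The other 2 were C1qc, given above, and the C1 protease gene C1ra, with 0.21 (adjusted p = 0.0492), which was named after its values were seen. From 11 to 25 months 0 of 7 passed by limma, 4 had an unadjusted p under 0.05 and the one-way test called 0. From 2 to 25 months 0 passed, 1 had an unadjusted p under 0.05 and the one-way test called 0, with Cfb at 0.28 (adjusted p = 0.107). The count of 4 was 1 with the array signal range as a covariate, where Serping1 did not pass (adjusted p = 0.118), and 2 with the one-way test, without replicate 2 at 2 months and without replicate 6 at 11 months. Cfb passed under all 29 alternatives.

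Among macrophage activation genes, with 11 of 16 measured, 2 rose and 0 fell from 2 to 11 months and 3 rose and 0 fell from 2 to 25 months, beside 11.9% and 10.5% of all probesets higher. The list as a whole did not follow: 5 and 4 of the 11 were above 0, with median log2 changes of -0.02 and -0.04. Gpnmb, a membrane glycoprotein of lipid-laden macrophages, went from a mean log2 level of 5.91 ± 0.14 at 2 months to 6.42 ± 0.24 in the 11-month and 6.35 ± 0.13 in the 25-month arrays (SD, n = 6). Both rises passed by limma (1.43-fold with adjusted p = 0.00118 and 1.36-fold with 0.00273) and under all 29 alternatives. Retnla, secreted by macrophages under interleukin 4 and also made in fat tissue, rose by 0.53 and 0.43 (adjusted p = 0.0066 and 0.0214). Neither rise passed with the array signal range as a covariate (0.151 and 0.0651), and the rise at 25 months was also lost without replicate 2 or 5 at 2 months or 1 at 25 months. Tnf, the inflammatory cytokine, was the third gene at 25 months, with a log2 change of 0.27 (adjusted p = 0.0312), and was named after its values were seen. From 11 to 25 months 0 of 11 passed by limma, 1 had an unadjusted p under 0.05 and the one-way test called 0. Without replicate 5 at 2 months the 3 rises at 25 months became 1. Adipocyte markers moved with the rises at 11 months: 4 of 7 rose and 0 fell from 2 to 11 months by limma, and their summed intensity per array ran from 902 to 1701 at 2 months, from 1375 to 2640 at 11 months and from 982 to 2374 at 25 months. The part of fat tissue in the rises of complement and activation genes was not tested.

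**Figure D5:**
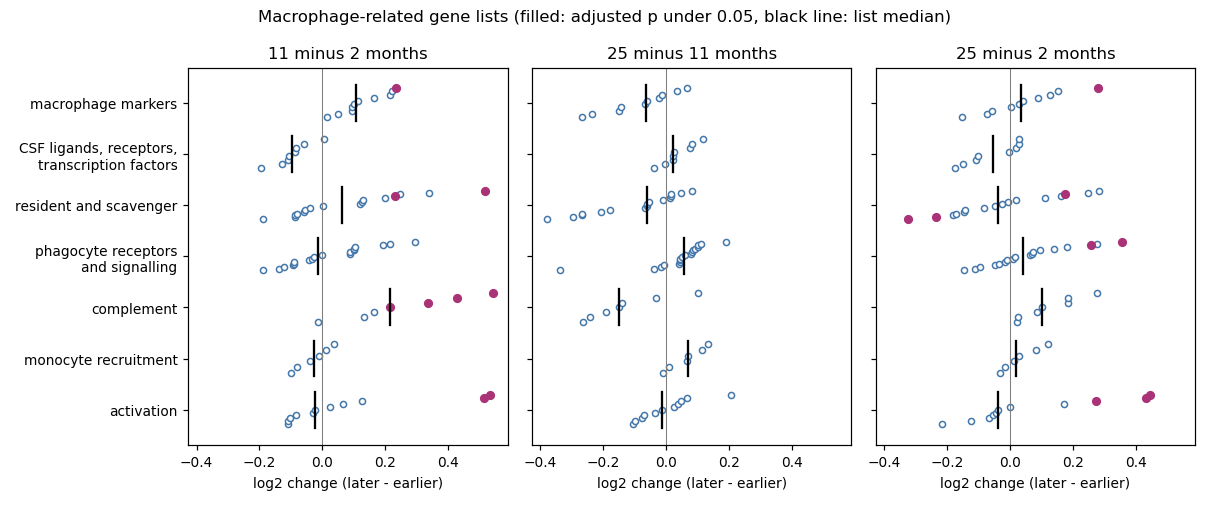
Log2 change (horizontal axes, later minus earlier age) of each measured gene of 7 lists in the 3 pairs of ages; filled dots have a limma adjusted p under 0.05 and black lines mark list medians. Filled dots lie above 0 at 11 against 2 months, with 4 of 7 complement genes among them, and none is filled at 25 against 11 months.

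Markers of other immune cells are given beside the macrophage genes because some of these cells share them. Of all probesets, 11.9% were higher and 7.18% lower at 11 against 2 months, and 10.5% and 6.95% at 25 against 2 months. The mast cell list had 3 of 4 measured genes called from 2 to 11 months, 2 higher and 1 lower, and 1 higher and 1 lower from 2 to 25 months. The mast cell protease genes Cpa3 and Cma1 rose at 11 months by log2 changes of 0.36 and 0.19 (limma adjusted p = 0.00778 and 0.0138), while Tpsb2, a tryptase gene, fell by 0.21 (0.0311). At 25 months Cma1 rose by 0.18 (0.0182) and Tpsb2 fell by 0.21 (0.0329). With the array signal range as a covariate, none of these 3 genes passed at 11 months (limma adjusted p = 0.0939 for Cpa3 and 0.0511 for Cma1). Tpsb2 passed in 18 of 28 alternatives at 11 months and in 21 of 28 at 25 months. The filter on dim probesets left out Cpa3 and Tpsb2, and also Retnlg and Cd2, given below. Of the 6 dendritic cell genes measured, 1 was above 0 at 11 against 2 months, with a list median of -0.11 and 3 at an unadjusted p under 0.05. That gene, Cd209a, was the 1 called, with 0.26 at 11 months and 0.24 at 25 months (limma adjusted p = 0.0229 and 0.0351), and neither call held without replicate 6 at 2 months (0.0504 and 0.0759). Among the 8 neutrophil genes Mmp9 rose by 0.36 and Retnlg fell by 0.22 from 2 to 11 months; Mmp9 did not pass without replicate 6 at 2 months (limma adjusted p = 0.0503) or without replicate 4 at 11 months (0.0511). The T and NK cell list had 1 call among 8, a fall of Cd2 by 0.21 from 2 to 11 months (limma adjusted p = 0.0494). It passed in 7 of 28 alternatives, with adjusted p from 0.0151 to 0.42, and was lost without replicate 6 at 2 months (0.11) and without replicate 4 at 11 months (0.0627). Of the 6 B cell genes 0 passed by limma in that pair, with 2 at an unadjusted p under 0.05. The part of these cells in the values of Itgam and the other macrophage markers was not tested.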

How the data were processed

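RNA from gastrocnemius was measured in 18 samples on Affymetrix whole-transcript arrays, after ribosomal RNA was depleted, per the labels' protocols. The deposited table holds linear intensity, with 1 value per probeset and array. RMA, Affymetrix Expression Console 1.2.1 and build mm8 are listed in the submitters' processing notes, and GeneSpring GX 14.9 in the series text. RMA compresses differences among dim probes. The labels give no batch or scan date.

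Log2 was taken of all 15300 probesets. Probesets were named through the platform annotation. limma 3.58.1 in R 4.3.3 fitted 1 mean per age over 18 arrays, with Benjamini-Hochberg adjustment over all probesets and a threshold of 0.05. Intervals are at 95%. The p-values measure the spread between samples labelled as biological replicates. Pairs of genes were tested by 100000 permutations within ages (Python 3.11.15, scipy 1.17.1). The models were tested on simulated data. The members and lists were chosen with earlier results of these data known. Named genes are the 10 members and the genes most like them, and the rule allowed from each list up to 2 called genes per direction and pair of ages or else the one of smallest p; genes it gives for non-immune cell types are summarised by counts, and exceptions are marked. Alternatives were the one-way test with Tukey, 2 further scalings, a filter on dim probesets, other variance models, array weights and a replicate block. Others were a covariate for signal range (how widely log2 values spread on an array) and leaving out arrays. In the one-way test a pair of ages passed where Tukey's p and the F test's Benjamini-Hochberg-adjusted p were both under 0.05. The larger of both is given as its adjusted p. Tukey's p was not adjusted over probesets. Leaving out the array of highest skin markers is the same fit as leaving out replicate 4 at 11 months, and counts of alternatives hold both. Promoters come from RefSeq (GRCm38.p6). Its build differs from mm8, so no positions are given for probesets. For arrays, their number limits the precision.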

Additional observations from a re-analysis of the deposited data

How the results depend on the processing

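Of the 10 macrophage marker genes, 1 passed at 11 against 2 months; 0 passed with the one-way test with Tukey, with quantile normalization, with array weights and with the array signal range as a covariate, and leaving out single arrays gave 0 to 2. At 25 against 2 months 1 passed; 0 passed with the one-way test with Tukey and in a fit of only the 12 arrays compared, and leaving out single arrays gave 0 to 1. At 25 against 11 months 0 of 10 passed in limma and in every alternative run. By limma 2 had an unadjusted p under 0.05, beside 1591 of 15300 probesets. Over the 3 ages 0 passed; 1 passed with quantile normalization, with dim probesets left out and without the 3 arrays of narrowest signal range, and leaving out single arrays gave 0 to 1. The 15 pairs of genes that varied together became 0 without the 2 arrays farthest from the median and 0 without replicates 2 and 6 at 2 months, and 18 with the array signal range removed, and leaving out single arrays gave 3 to 16. The cause of these shifts was not tested. Replicate numbers are shared between ages and were not treated as pairs in the main fit. Same-numbered arrays correlated in their deviations at r from -0.33 to 0.42, and 6 of 18 arrays correlated best with one of their own number. These values carry no test and cannot tell whether the numbers pair samples. With the replicate block, 1 gene (Lyve1, adjusted p = 0.0407) passed over the 3 ages in place of 0, and the counts in the 3 pairs of ages stayed at 1, 0 and 1. No result changed direction in a call. Another probeset per gene could not be tried, since each gene has 1. Cd14 lies among the dimmest probesets, where arrays resolve differences least.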

Other observations

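Replicate 6 at 2 months held B cell markers at a mean log2 level of 6.06, against 5.18 to 5.34 on the other 5 arrays of its age, 5.10 to 5.25 at 11 months and 5.20 to 5.28 at 25 months. It was also the array with the highest values of 7 of the 10 macrophage markers at 2 months. The labels do not say what set this sample apart, and the cause was not tested.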
